A study of Tripsacum dactyloides with 133 samples.

Results

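Eastern gamagrass (*Tripsacum dactyloides*, cultivar Pete) is a perennial prairie grass related to maize. Crown roots of gamagrass seedlings were profiled by RNA-seq after the seedlings had received live soil microorganisms and had been kept well-watered. The comparison described here is between live inocula from soils that had carried a gamagrass plant (middle letter G in the inoculum name) and live inocula from soils that had been left unplanted (N). The rule took every well-watered library with a live inoculum, 62 libraries in all, of which 32 had a gamagrass-conditioned and 30 an unplanted inoculum. The rest of the series is 63 droughted live libraries and 8 mock libraries.

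Soil had been collected at 4 prairies in Kansas, which the labels code as CWR, SVR, TRI and WEL. The study places SVR and TRI at the dry end and CWR and WEL at the wet end of the precipitation gradient, and this legacy was a covariate in the main model. Before the microorganisms were extracted, each potted soil had been conditioned under drought or ample water, either with gamagrass or with no host. CWR, SVR and TRI each gave 8 libraries with gamagrass-conditioned and 8 with unplanted inocula, and WEL gave 8 and 6. Per the study's methods, the inoculum of a planted pot came from particles shaken off the roots and that of an unplanted pot from mixed bulk soil, so that host presence and the kind of soil sampled cannot be told apart. The methods also state that extracts were not pooled and that some pots supplied a watered and a droughted plant. The labels do not say which. A further 31 and 32 libraries of droughted plants with gamagrass-conditioned and unplanted inocula served for the comparison between test-phase waters. Mock plants, which received buffer in place of microorganisms, gave 4 watered libraries and 4 droughted ones.

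A growing root feeds, selects and signals to the microorganisms around it, so that soil taken from a root surface carries another community than bulk soil. Plants in turn read microorganisms through receptors and hormones, and inducible genes of defence, nutrient uptake and protein folding are often switched strongly in a few tissues or plants and left nearly silent in others. The deposited tables pair gamagrass genes with maize orthologues but carry no gene names. Functions are therefore given only for genes to which the study assigns one, and other genes are given by identifier.

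No difference in depth between the groups was detected. Total counts ranged from 8.05 to 62.1 M (1e6) with a median of 26.5 in the gamagrass-conditioned group, and from 1.14 to 69.4 M with a median of 26.1 in the unplanted group. The difference of the means had an adjusted p of 0.983 (two-sided permutation test, Benjamini-Hochberg over 4 measures). The other measures, plant number, genes detected and median correlation with the other libraries, had the same adjusted p. Over the whole transcriptome, host of conditioning took 1.89% of the variation among the 62 libraries (PERMANOVA on log2 CPM, counts per 1e6 of the library total, p = 0.215), where a single random term would take 1.64%. The median log2 fold change of all genes tested was -0.02.

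Against this background, 39 of 36680 genes tested (0.106%) were called at an adjusted p of 0.05 by DESeq2, the tool that the study used. Of these, 27 were lower and 12 higher in plants with gamagrass-conditioned inocula than in plants with unplanted inocula. edgeR's quasi-likelihood test called 0 of 31673 genes (0%), with 2094 genes at an unadjusted p under 0.05 and a smallest adjusted p of 0.222, and limma voom also called 0, with 2308 genes at that level. Of the 39 genes, 30 had an edgeR value. All 30 had the same sign there, and 27 had an unadjusted p under 0.05 (6.61% of all genes did), which is no independent evidence because the same libraries chose them. In the same DESeq2 fit, drought against water during conditioning gave 8 calls (0.0184%).

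Most called differences were large, and some rested on few plants. Of the 39 genes, 34 had an absolute log2 fold change of 1 or more, and in 17 genes more than 50% of the summed CPM of the 62 libraries stood in 5 libraries. Of the 39, 33 had a maize orthologue (84.6%, against 76.5% of the genes tested). Separately, 6 of the 39 overlapped a gene on the opposite strand, whose reads cannot be told apart here because the counting command set no strand. Among them, Td00002ba040792 and Td00002ba040793 overlap each other, as do Td00002ba013847 and Td00002ba013848. The 39 calls thus count some of the same reads more than once.

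The gene with the smallest p was Td00002ba012949 on chromosome 3 (positions 183252871 to 183254056), paired with maize Zm00001eb298250. It had no count in 31 of the 62 libraries. In plants with gamagrass-conditioned inocula its level ran from 0 to 22.6 CPM with a median of 0, and only 1 of 32 libraries exceeded 1 CPM. In plants with unplanted inocula it ran from 0 to 46.2 CPM with a median of 0.038, and 7 of 30 libraries exceeded 1 CPM. Most plants of both groups were thus near 0 and the ranges overlapped. The log2 fold change was -5.11 ± 0.91 (SE; DESeq2 adjusted p = 0.000828), and a permutation of host within site and conditioning water gave p = 0.031 for the difference in mean log2 CPM. Without 1 library of the unplanted group at TRI (replicate 2) the value was -3.16, and with 2 surrogate variables it was -2.25 (adjusted p = 0.667). Without the site TRI it was -4.12 and no longer called (adjusted p = 0.622).

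The other gene named among those that fell, Td00002ba043414 (chromosome 17, 12001273 to 12001845, maize Zm00001eb171490), belongs to a tandem array described below. Its level ran from 0 to 1.74 CPM with a median of 0.219 in the gamagrass-conditioned group, and from 0 to 13.5 CPM with a median of 0.842 in the unplanted group. More than 1 CPM was reached by 5 of 32 and 14 of 30 libraries, respectively. The log2 fold change was -2.26 ± 0.45 (adjusted p = 0.00473; permutation p = 0.00093), and the call was lost without SVR (adjusted p = 0.0687) or WEL (0.0907).

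Among the genes that rose, Td00002ba020650 (chromosome 6, 29203669 to 29205346, maize Zm00001eb361630 and Zm00001eb361620) had a log2 fold change of 3.04 ± 0.61 (adjusted p = 0.00473; permutation p = 0.0375). Its level ran from 0 to 86 CPM with a median of 0.933 in the gamagrass-conditioned group, and from 0 to 13.1 CPM with a median of 0.523 in the unplanted group. The medians were close, and the difference stood in the upper tail, where 5 libraries against 1 exceeded 10 CPM. The log2 fold change was 3.79 ± 0.71 with inocula conditioned under ample water and -0.43 ± 0.69 with those conditioned under drought. Without the site CWR it was 1.54 (adjusted p = 0.203).

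Td00002ba026859 (chromosome 8, 47478060 to 47494406), which has no maize orthologue in the table, had a small difference at a steady level. Its level ran from 18.2 to 45.9 CPM with a median of 27.9 in the gamagrass-conditioned group, and from 15.7 to 31 CPM with a median of 22.7 in the unplanted group. The log2 fold change was 0.33 ± 0.07 (adjusted p = 0.0135; permutation p = 2.0e-05), and it was positive at each of the 4 sites, between 0.20 and 0.57. The call was lost without SVR (adjusted p = 0.388) or TRI (0.144).

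The most abundant called gene that rose, Td00002ba034433 (chromosome 12, 7697882 to 7700399, maize Zm00001eb296540), overlaps a gene on the opposite strand. Its median was 25.2 CPM (range 1.34 to 505.6) with gamagrass-conditioned and 8.08 CPM (range 0.387 to 83.1) with unplanted inocula. The log2 fold change was 1.72 ± 0.41 (adjusted p = 0.0342; permutation p = 0.00067), and it ran from 0.43 ± 0.71 at CWR to 3.53 ± 0.79 at TRI. The call was lost without SVR (adjusted p = 0.388), TRI (0.356) or WEL (0.144).

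**Figure D1:**
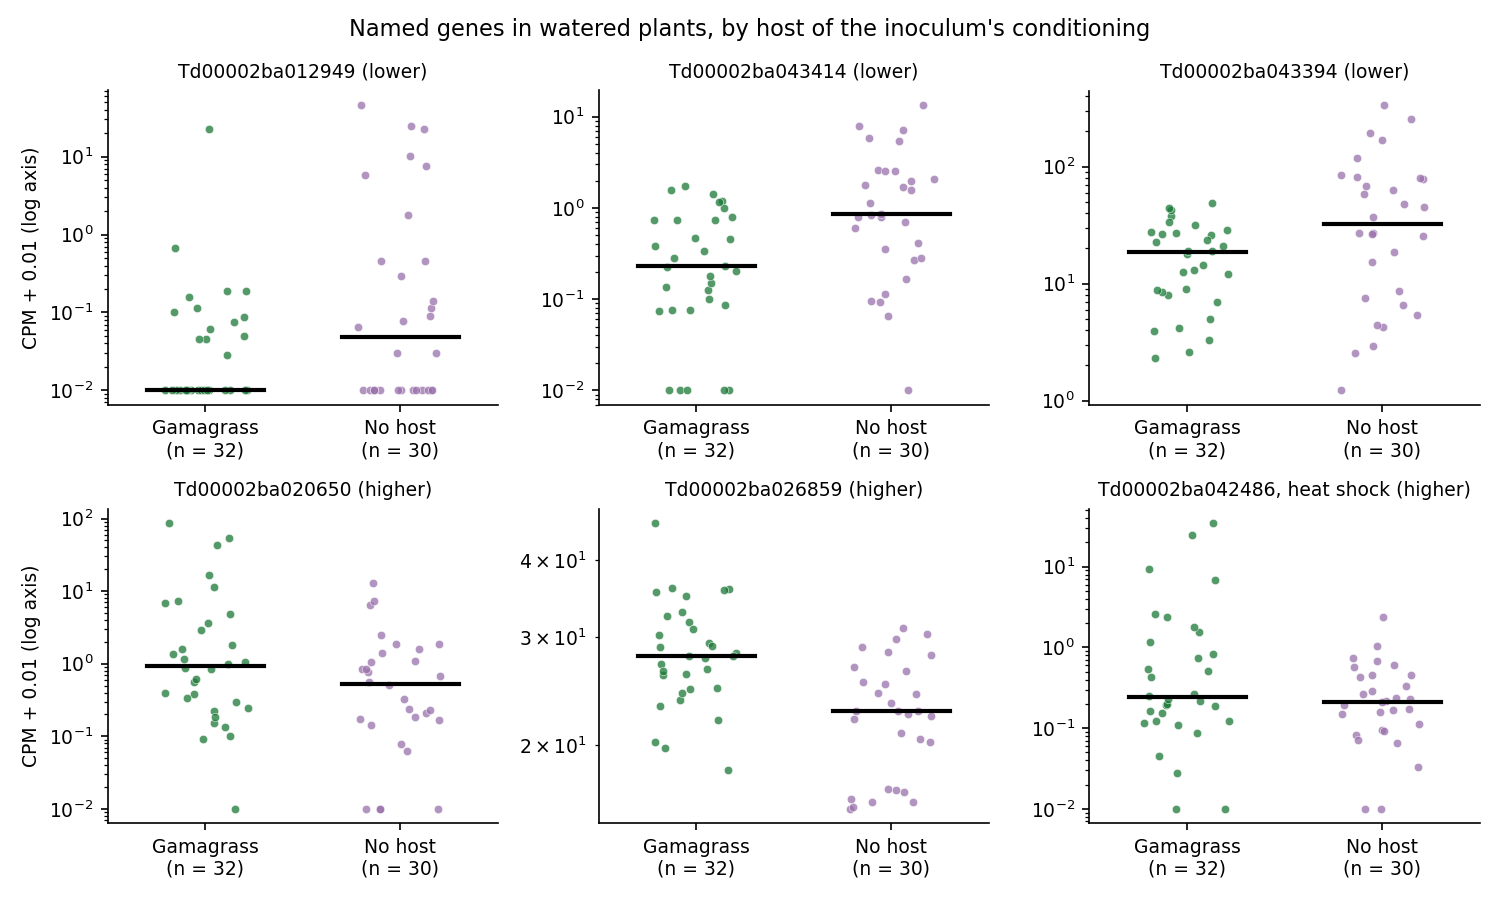
Level of 6 genes in each of the 62 watered libraries (log axis, CPM plus 0.01, so that points at the bottom are libraries with no count), by host of conditioning, with medians as bars. Td00002ba026859 differs by little at a level with a count in every library, whereas for Td00002ba012949 most libraries lie near 0 and single ones reach up to 46.2 CPM.

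Of the 39 called genes, 8 lay in 1 tandem array on chromosome 17, and all 8 were lower with gamagrass-conditioned inocula. The array was singled out after its values had been seen, so its watered values are a description. It spans positions 11623413 to 12151054 and holds all 27 genes of 1 orthogroup in the deposited table, 15 on the minus strand followed by 12 on the plus strand. A tandem array arises when a gene is copied repeatedly in place, and its copies are often alike enough that reads match several of them. Here a median of 61.7% of an array gene's values were not whole numbers, against 13.9% of all values, so that reads were split among copies and the copies are not independent. Across the 62 libraries their log2 levels had a median pairwise correlation of 0.81.

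All 27 array genes had a negative log2 fold change in watered plants, from -2.26 to -0.65 with a median of -1.42, and 23 had an unadjusted p under 0.05, as 6.95% of all genes did. The 15 minus-strand genes had a median of -1.53 and held 7 of the 8 calls. The 12 plus-strand genes, which were less abundant, had a median of -1.09 and held 1. The most abundant called gene that fell was the first of the array, Td00002ba043394 (11623413 to 11624783), with a median of 18.5 CPM (range 2.33 to 48.5) in the gamagrass-conditioned and 32.1 CPM (range 1.21 to 337.6) in the unplanted group. Its log2 fold change was -1.66 ± 0.36 (adjusted p = 0.0135; permutation p = 0.0399). The call was lost without SVR (adjusted p = 0.22), TRI (0.163) or WEL (0.121). None of the 4 genes of other orthogroups inside the array or of the 5 genes on either side was called. Of the 4 inside, 3 were of 1 other orthogroup. Their log2 fold changes were -1.02 ± 0.86 and -0.73 ± 0.91, within the range of the array genes, and -0.59 ± 0.93, just above it. The fourth was at 0.31 ± 0.29. The 5 genes before the array lay between -0.08 and 0.25 and the 5 after it between -0.15 and 0.25.

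**Figure D2:**
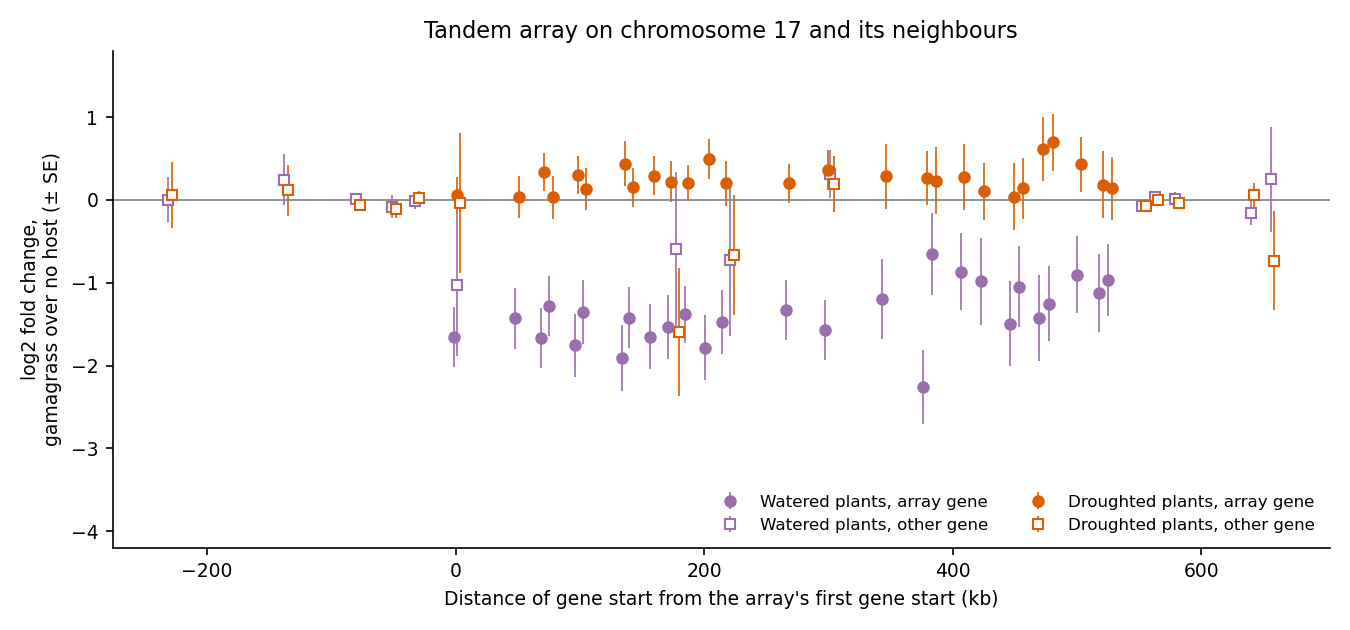
Log2 fold change (gamagrass-conditioned over unplanted, ± SE) of the 27 array genes (filled circles) and of their neighbours (open squares) by distance of the gene start from the first array gene, in watered and droughted plants. The 27 array genes lie below 0 in watered plants, with a median of -1.42, and slightly above 0 in droughted plants, with a median of 0.22.

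Summed over its 27 genes, the array stood at 9.72 to 256.5 CPM with a median of 127.8 in watered plants with gamagrass-conditioned inocula, and at 4.97 to 2340 CPM with a median of 158.6 in those with unplanted inocula. The groups thus shared their lower range and separated at the top, where 14 of 30 libraries with unplanted inocula exceeded the highest library with a gamagrass-conditioned inoculum. These 14 came from every site, 4 each from SVR, TRI and WEL and 2 from CWR. Of them, 9 had inocula conditioned under drought and 5 under ample water, and 10 had plant numbers below and 4 above the median of 443.5. The 3 watered mock libraries with usable depth stood at 63.3, 134.2 and 229.8 CPM, within the range of both groups. For single array genes a mock library could exceed every gamagrass-conditioned one, with a highest mock level of 103.4 CPM for Td00002ba043394 and 3.25 CPM for Td00002ba043414.

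By site, the median log2 fold change of the 27 array genes was -0.56 at CWR, -1.28 at TRI, -1.75 at WEL and -1.92 at SVR. It was -1.45 with inocula conditioned under drought and -1.42 with inocula conditioned under ample water. No array gene was called within a single site. None of the 27 genes was called in fits without SVR or without WEL, and 1 was called without TRI. Without CWR, 16 were called, with a median log2 fold change of -1.66. One library of the unplanted group at SVR (replicate 9) had the highest array level, 2340 CPM. Without it, 3 of the 8 array genes and 20 of the other 31 called genes stayed past the p limit, and the median log2 fold change of the 8 array genes moved from -1.71 to -1.44.

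**Figure D3:**
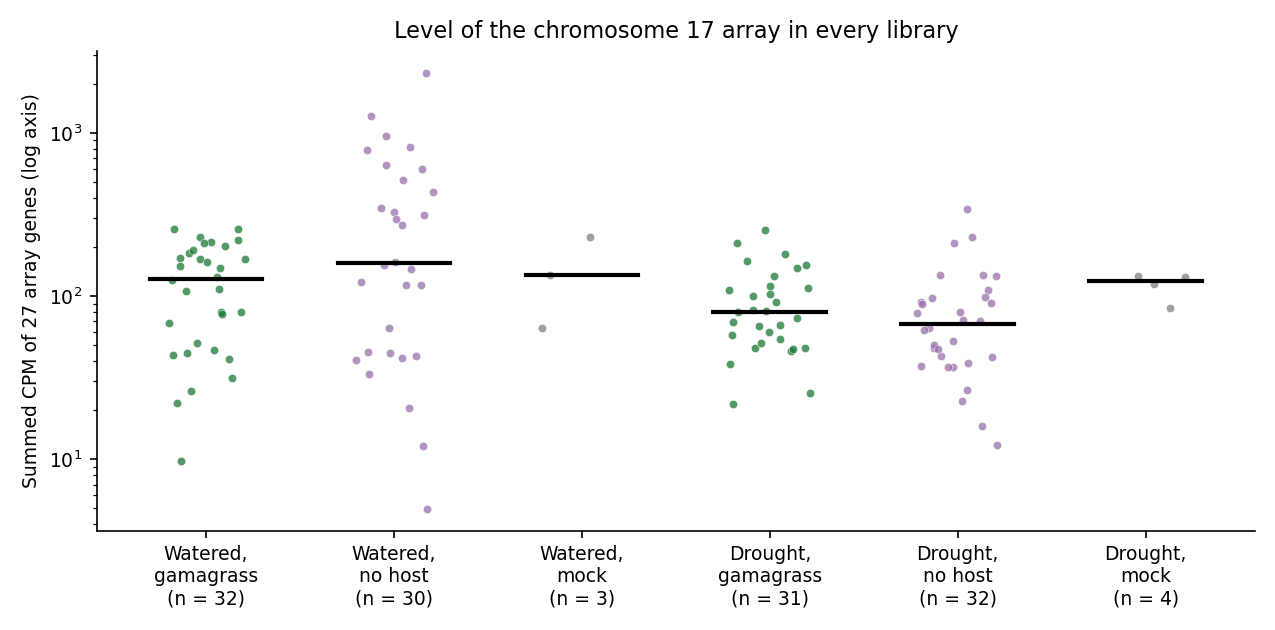
Summed level of the 27 array genes (CPM, log axis) in each library, by test-phase water and inoculum, with medians as bars. 1 mock library with about 6045 counts is left out. The watered plants with unplanted inocula reach 2340 CPM, while those with gamagrass-conditioned inocula end at 256.5 CPM.

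The genes to which the study assigns a function were chosen there for other contrasts and are read here as values. Those for pathogen defence and response to symbiotic fungi were named in its maize results, the others at least in part on these samples. The list held 39 genes, counting all gamagrass orthologues of the maize genes named, and 32 of them had an adjusted p. Of these, 1, a heat shock protein gene, was called, and it was higher, where 0.106% of all genes tested were called. A single gene of a list chosen by the study is not read as a result about the list. Heat shock proteins are chaperones that keep other proteins folded under stress. This gene, Td00002ba042486 (chromosome 16, 76208331 to 76211060), ran from 0 to 34.5 CPM with a median of 0.23 in the gamagrass-conditioned group, and from 0 to 2.40 CPM with a median of 0.203 in the unplanted group. The medians were nearly equal, but 9 of 32 against 2 of 30 libraries exceeded 1 CPM. The log2 fold change was 2.28 ± 0.52 (adjusted p = 0.0263), and the permutation of host within site and conditioning water gave p = 0.07. It was positive at CWR, SVR and TRI, between 1.85 and 3.74, and -1.25 ± 0.97 at WEL. Without SVR the gene was not called (adjusted p = 0.445). The call was also lost with plant number as a spline (0.0512), with 2 surrogate variables (0.0597) and with every live library in 1 model (0.147). Outside this list, Td00002ba000754 (maize Zm00001eb057770) was called too, at -2.68 ± 0.57 (DESeq2 adjusted p = 0.0135). The study gives it no gene symbol, but the highest positive loading on the first axis of its ordination of legacy-sensitive genes.

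None of the hormone-related genes of the list passed the test in the main model. The orthologue of ereb177, Td00002ba011993, is of the ethylene-responsive transcription factor family and is also 1 of the 5 genes the study links to ethylene or abscisic acid signalling of water stress. It had a log2 fold change of -1.27 ± 0.33 (adjusted p = 0.0733), and it passed the limit without CWR (0.041), with every live library in 1 model (0.0175) and with 2 surrogate variables (0.0394). The other 4 genes of that group had values between -0.91 and -0.27, with adjusted p of 0.451 or more. The orthologue of ga20ox7, a gibberellin oxidase gene, was at -0.13 ± 0.41, and its sign changed under 8 of 18 alternatives.

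Orthologues of maize defence genes had values of both signs and none was called in the main model. Of the 5, Td00002ba028085 was at -1.24 ± 0.50 and Td00002ba019413 at -1.16 ± 0.47, while Td00002ba031190 was at 0.78 ± 0.34 (adjusted p of 0.444, 0.449 and 0.511). Without CWR the first was called, at -1.90 (adjusted p = 0.0159). The remaining pair, orthologues of a gene annotated as pathogenesis-related, had counts that DESeq2 set aside as outlying and so had no p. The orthologue of the gene for response to symbiotic fungi, Td00002ba006103, was at -0.66 ± 0.30 (adjusted p = 0.533).

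Genes of metabolism and development were not called. The 4 orthologues of nas7, whose product makes the metal chelator nicotianamine, ranged from -0.18 ± 0.51 to 0.10 ± 1.01. They lie in overlapping pairs and near the floor, with mean normalized counts from 1.21 to 4.27. They had no count in 14 to 39 of the 62 libraries, so values near 0 do not show that an effect was absent. Td00002ba025285, the peroxidase gene, was at -0.11 ± 0.41, Td00002ba026366, for L-allo-threonine aldolase, at -0.45 ± 0.35, and Td00002ba012570, for tryptophan synthase, at -0.14 ± 0.10. Of the 11 orthologues of mads58, a MADS-box transcription factor gene, 7 had an adjusted p and the smallest was 0.663. The 3 of ms33, known in maize for a role in male fertility, ranged from -0.88 to 0.10. Of the 5 of pat3, 4 had an adjusted p, the smallest 0.783 (DESeq2), and ranged from -0.06 to 0.81. The other pat3 gene, at -0.33 ± 2.94, had no count in 60 of the 62 libraries.

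Whether the host effect held in droughted plants was tested in the 63 droughted libraries, which share no library with the watered ones. There, 29 of 35394 genes (0.0819%) were called by DESeq2, 17 higher and 12 lower with gamagrass-conditioned inocula, and 3 of them were among the 39. Of these 3, Td00002ba033066 (-2.96 in watered, 3.96 in droughted plants) and Td00002ba009809 (1.95 and -1.70) had opposite signs in the waters. Only Td00002ba018780 kept its sign, at 2.95 ± 0.72 (DESeq2 adjusted p = 0.0477) in watered and 3.41 ± 0.74 (0.0101) in droughted plants. Of the 39 genes called in watered plants, 28 had the opposite sign in droughted plants, 21 of those that were lower and 7 of those that were higher, and 11 had the same sign. The share of opposite signs over all genes is not given here. The 28 include the 8 array genes and the overlapping pair Td00002ba013847 and Td00002ba013848, which share reads and are not separate observations. At an unadjusted p under 0.05 in droughted plants stood 8 of the 39 (20.5%, against 3.61% of all genes), 7 of them with the opposite sign.

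**Figure D4:**
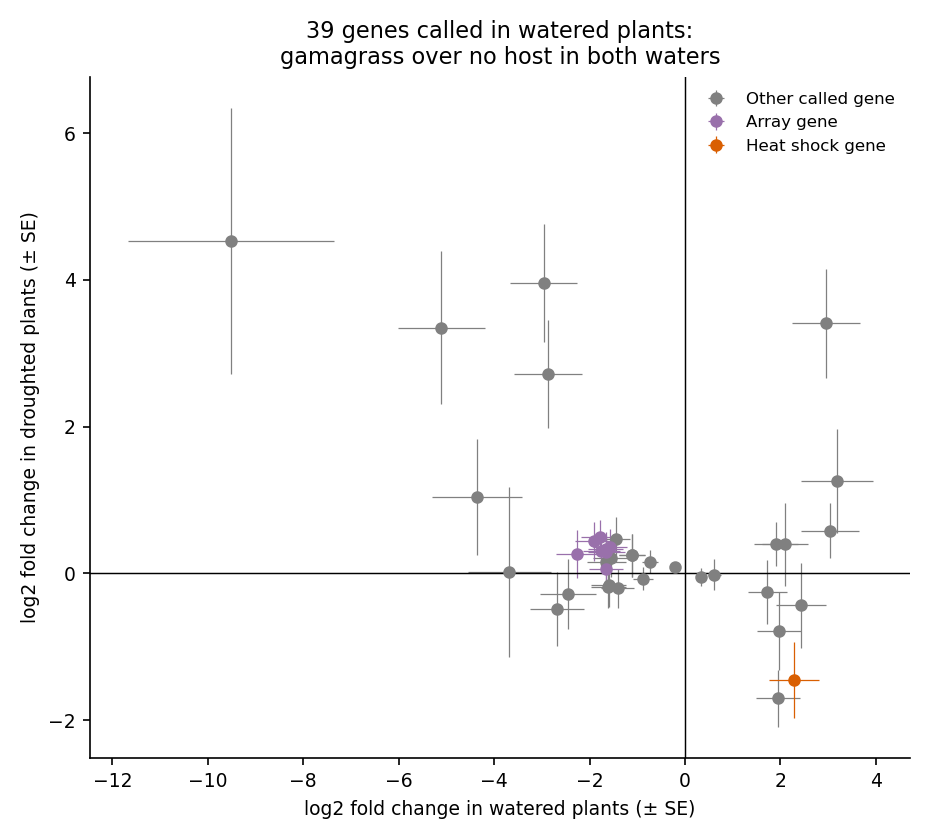
Log2 fold change (gamagrass-conditioned over unplanted, ± SE) of the 39 called genes in watered plants (x axis), which chose them, and in droughted plants (y axis). Points in the upper left and lower right, 28 of 39, have opposite signs in the 2 waters, the heat shock gene and the 8 array genes among them.

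The difference between the waters was tested as the interaction of host with test-phase water over all live libraries, positive where the host effect was higher in droughted plants. DESeq2 called 46 of 44244 genes (0.104%) and edgeR 18 of 34323 (0.0524%), and 15 genes were called by both, all in the same direction. This contrast holds the watered libraries that chose the 39 genes, of which 15 were called in the interaction by DESeq2 and 9 by edgeR. Among the array genes, all 27 had a positive value in droughted plants, from 0.03 to 0.70 with a median of 0.22, and none was called there. The interaction was called for 7 of them by DESeq2 and for 4 of these by edgeR too. In droughted plants alone, mean log2 array CPM was 6.33 ± 0.83 (SD, n = 31) with gamagrass-conditioned and 6.05 ± 1.04 (SD, n = 32) with unplanted inocula (two-sided permutation within site and conditioning water, p = 0.239).

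The heat shock gene also had opposite signs in the 2 waters. Its log2 fold change was 2.28 ± 0.52 in watered plants. In droughted plants it was -1.45 ± 0.52 and not called (DESeq2 adjusted p = 0.763). There, 1 of 31 libraries with gamagrass-conditioned and 7 of 32 with unplanted inocula exceeded 1 CPM. The interaction was -4.56 ± 0.86 (adjusted p = 0.000822 by DESeq2 and 0.0314 by edgeR).

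Of the genes named from the interaction, Td00002ba033066 (chromosome 11, maize Zm00001eb288700) had the smallest p. With gamagrass-conditioned inocula its highest level was 0.657 CPM in watered and 6.65 CPM in droughted plants, and with unplanted inocula 10.04 and 3.18 CPM. Levels over 1 CPM were found in 0 of 32 and 9 of 31 libraries with gamagrass-conditioned inocula, and in 4 of 30 and 1 of 32 with unplanted inocula. The interaction was 6.71 ± 1.07 (adjusted p = 1.39e-05 by DESeq2 and 0.000857 by edgeR).

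Td00002ba038445 (chromosome 14, maize Zm00001eb392080) had the same direction, 7.72 ± 1.41 (adjusted p = 0.000422 by DESeq2 and 0.000724 by edgeR). In watered plants 2 libraries, at 29 and 19.1 CPM, made the unplanted group higher, and in droughted plants 2 libraries, at 18.2 and 17.5 CPM, made the gamagrass-conditioned group higher. Td00002ba009809 (chromosome 3, maize Zm00001eb271880) went the other way, with an interaction of -3.74 ± 0.60 (adjusted p = 1.39e-05 by DESeq2 and 0.00128 by edgeR). It had at least some counts in every live library. Its mean was 14.2 ± 29.1 CPM (SD, n = 32) with gamagrass-conditioned and 3.79 ± 4.08 (SD, n = 30) with unplanted inocula in watered plants, and 2.19 ± 2.24 (n = 31) and 7.71 ± 13 (n = 32) in droughted plants. The last named gene, Td00002ba036729 (chromosome 13), had no count in 30 of 30 watered libraries with unplanted inocula and in 29 of 32 with gamagrass-conditioned ones, and its fitted value has no meaning as a fold.

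Within the watered plants, the comparison was repeated for each site that supplied the soil. DESeq2 called 25 genes at CWR (0.0681%), 457 at SVR (1.42%), 83 higher and 42 lower at TRI (0.347%) and 164 at WEL (0.447%), each from 14 to 16 libraries, whereas edgeR called 0 at each site. The interaction of host with site was called for 274 of 32482 genes (0.844%) by DESeq2 and for 1 by edgeR, which was not among the 274 that DESeq2 called. The 2 named from it, Td00002ba035017 (chromosome 12) and Td00002ba040938 (chromosome 15), had 73.5% and 57.7% of their summed watered CPM in 5 libraries (adjusted p = 0.00544 and 0.00614). The 39 called genes themselves were steadier in sign, and 31 had the same sign at all 4 sites. Their choice from the pooled libraries favours this.

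By conditioning water, DESeq2 called 9 genes with inocula conditioned under drought (0.0212%) and 20 with those conditioned under ample water (0.0552%), and edgeR called 0 in each. The interaction was called for 19 of 43418 genes (0.0438%) by DESeq2 and for 0 by edgeR. Of the genes named from it, Td00002ba019421 (chromosome 5) had an interaction of -8.33 ± 1.35 (adjusted p = 2.78e-05 by DESeq2 and 0.13 by edgeR) and Td00002ba039084 (chromosome 14) of 7.43 ± 1.55 (adjusted p = 0.00489), with 66.8% and 97.3% of their summed CPM in 5 libraries. Td00002ba003680 (chromosome 1; adjusted p = 0.000183) had no count in 52 of the 62 libraries. Of the 39 called genes, 37 had the same sign in both conditioning waters.

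**Figure D5:**
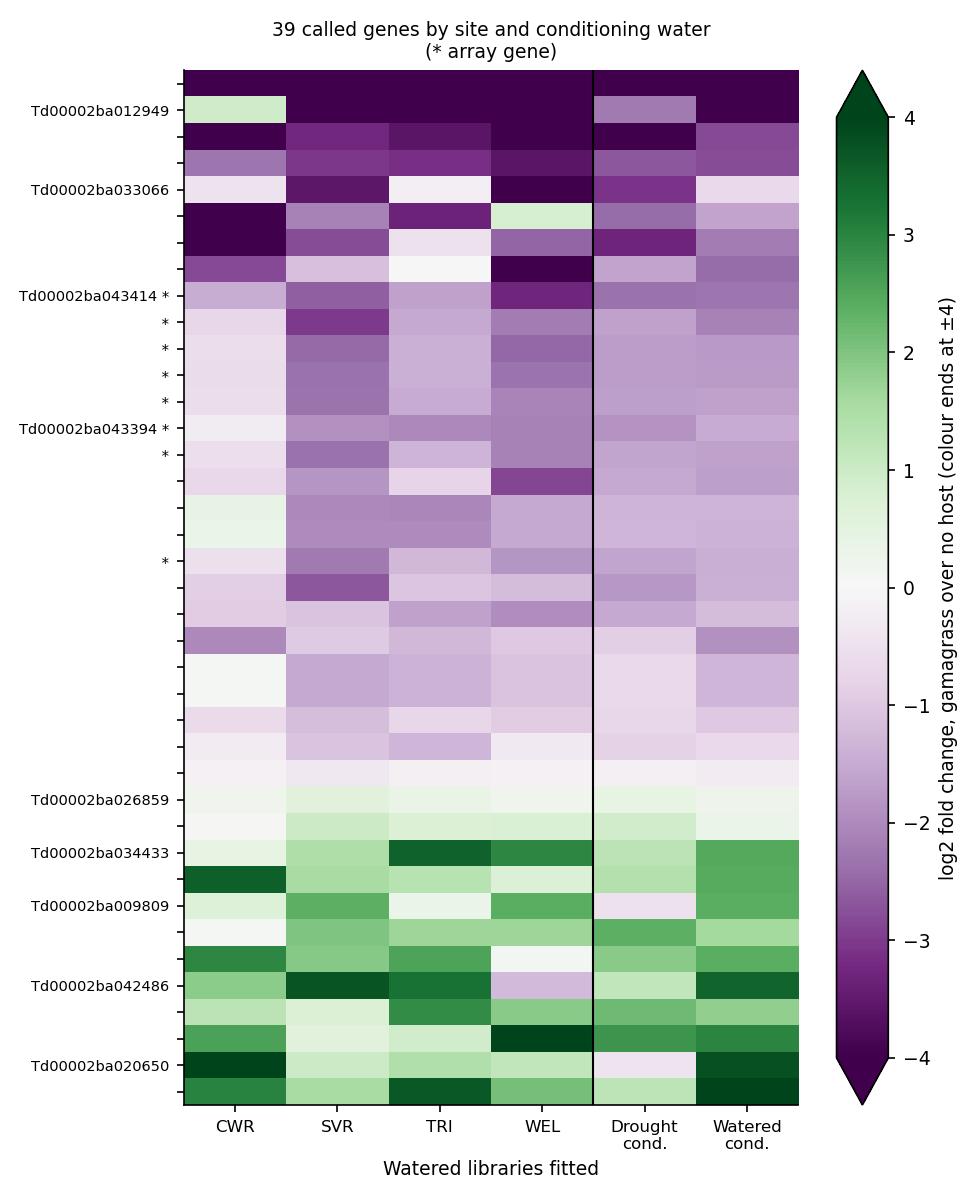
Log2 fold change (gamagrass-conditioned over unplanted) of the 39 called genes, 1 row each, fitted within each site and within each conditioning water. Colours end at 4 in either direction, the called genes whose levels are described in the text are labelled and array genes carry an asterisk. 31 rows keep 1 colour over the 4 sites, and the array rows are palest at CWR.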

How the data were processed

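Directional poly(A) libraries were made by the authors, who trimmed with cutadapt, aligned to the Td-KS_B6_1 gamagrass genome (HISAT2), de-duplicated (SAMtools) and counted genes (featureCounts 2.0.5). The deposited values are expected counts per gene, not normalized, with reads of several genes or places split into fractions and no strand set. Coordinates are those of that table's haplotype A.

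Counts were rounded for DESeq2 1.42.0 (Wald test, main model of legacy, conditioning water and host over the 62 libraries, Benjamini-Hochberg, 0.05) and edgeR 4.0.16. limma 3.58.1 (voom), sva 3.50.0 and vegan 2.7.1 were run in R 4.3.3. CPM used the table's own totals. Single-value permutations drew 100000 resamples and PERMANOVA 10000. A ± after a log2 fold change or an interaction is the standard error of the estimate, with plants in separate pots as replicates. A ± after a mean CPM or mean log2 CPM is the SD among plants. The scripts were tested on simulated data, in which the share of false calls exceeded the adjusted limit for DESeq2 and not for edgeR, so calls by DESeq2 alone are less certain. For each comparison, called genes whose mean normalized count reached 10 were ranked by p, and the 2 highest-ranked in each direction were named, besides the annotated list and the most abundant called gene each way. Td00002ba018780 and Td00002ba000754 were added after the values had been seen. Members and lists were chosen with earlier results of these data known. No per-sample column was left unused.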

Additional observations from a re-analysis of the deposited data

Results flagged for a closer look

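Among 16 groups of one site and one inoculum type, tested for total count and for the summed level of the chromosome 17 array, 1 held a library far from the others. Chance alone flags about 1 such test in 20. In watered plants with unplanted SVR inocula, replicate 9 had 2340 CPM of array transcripts, and the next of the 8 libraries had 813.3. Its part in the calls is given with the array.

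The host effect differed between test-phase waters, which also differ in plant number, by the interaction test (DESeq2) for Td00002ba033066 (adjusted p = 1.39e-05), Td00002ba009809 (1.39e-05), Td00002ba036729 (0.000269), Td00002ba038445 (0.000422) and the heat shock gene Td00002ba042486 (0.000822). By DESeq2 alone, it was called as differing between conditioning waters for Td00002ba019421 (2.78e-05), Td00002ba003680 (0.000183) and Td00002ba039084 (0.00489). By DESeq2 alone, too, it was called as differing between sites for Td00002ba035017 (0.00544) and Td00002ba040938 (0.00614). Among the 62 watered libraries, Td00002ba036729 had no count in 59 and Td00002ba003680 in 52. Td00002ba039084 had 97.3% of its summed watered CPM in 5 libraries.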

How the results depend on the processing

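The count of 39 calls depended strongly on the setting, and the cause was not tested. It was 0 by edgeR and 0 by limma voom, 22 after filterByExpr, 25 with no replacement of outlying counts, 220 with only libraries of at least 30 M counts (7 of the 39 among them), 80 with every live library of both test-phase waters in 1 model (29), 113 when plant number entered as a spline (30), 91 with 2 surrogate variables (20) and 66 with log2 total count as a covariate (31), the last chosen after seeing the data. Without 1 site it was 642 (CWR), 6 (SVR), 11 (TRI) and 36 (WEL), of which 28, 2, 6 and 8 were among the 39. Among plants numbered below and above the median, also chosen after seeing the data, 52 and 27 were called, with 4 and 2 of the 39. Leaving out 1 library at a time kept between 23 and 37 of the 39 past the p limit in a refit of these genes with the main size factors, and 9 stayed with each of the 62 left out. Td00002ba012949, Td00002ba020650, Td00002ba033066, Td00002ba034433 and Td00002ba009809 stayed past it in 61, 60, 60, 58 and 57 of the 62 refits. Td00002ba026859, Td00002ba042486, Td00002ba043394 and Td00002ba043414 did so in all 62, Td00002ba000754 in 61 and Td00002ba018780 in 34. edgeR gave 0 calls within each site and each conditioning water (9 to 457 by DESeq2), 0 for the interaction with conditioning water (19), 1 for that with site (274) and 18 for that with test-phase water (46), which became 99 when plant number entered as a spline. Of the 9 called genes whose levels are described, only Td00002ba033066 changed sign in the watered comparison, from -2.96 to 0.15 (adjusted p = 0.997) with only libraries of at least 30 M counts, whereas 20 of the 31 uncalled ones did so under at least 1. The median over the 27 array genes ran from -1.90 to -0.54 over 20 alternatives, the latter above the median plant number, where 24 of 27 genes were negative. No paired analysis was possible because the replicate numbers were given in accession order and the labels do not link plants across groups. Depth limits the genes near 0, where 1 plant with reads sets the fold.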
